A study of Mus musculus with 54 samples.

Results

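The SLAM family comprises immunoglobulin-like receptors on the surface of blood-derived cells. Described here are 8 of them, encoded by Cd244a, Cd48, Cd84, Ly9, Slamf1, Slamf7, Slamf8 and Slamf9, among 33280 gene symbols counted in microglia (MG) and in the perivascular and leptomeningeal macrophages of the mouse brain (subdural CNS-associated macrophages, sdCAMs), both purified by cell sorting. The genes were taken by symbol from the count tables. The group was chosen by a measured value, since Cd244a was among the genes most strongly induced by lipopolysaccharide (LPS) in MG of Ccr2-/- mice. The values of that contrast are therefore given as a description without a test. All 8 genes passed the filter on low counts in every comparison.

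Most SLAM family receptors bind a copy of themselves on a neighbouring cell. An exception among the members is the receptor encoded by Cd244a, which binds CD48, a ligand anchored in the membrane by a lipid. The cytoplasmic tails of Cd244a, Cd84, Ly9, Slamf1 and Slamf7 carry tyrosine motifs that recruit small adaptors of the SAP family (Sh2d1a, Sh2d1b1 and Sh2d1b2). The adaptor encoded by Sh2d1a links the receptors to Src family kinases. Where adaptors are scarce, the motifs can bind the phosphatases encoded by Ptpn6, Ptpn11 and Inpp5d. Slamf8 and Slamf9 have short tails without these motifs and are known from myeloid cells. In macrophages, Slamf1 also takes part in phagosome maturation and in the control of the NADPH oxidase, whose membrane subunit is encoded by Cybb.

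Bulk RNA-seq was available for 54 libraries in 18 groups of 3, made from 24 adult mice. MG and sdCAMs were sorted from brains without choroid plexus, so that libraries of different cell types came from the same animals. Wild-type (WT) and Ccr2-/- mice, which carry a germline knockout of the chemokine receptor gene Ccr2 and have few circulating monocytes, were left untreated and injected with PBS, given the gavage vehicle (CTL) and injected with LPS, or given BLZ945 and injected with LPS. BLZ945 inhibits the CSF1 receptor and depletes brain macrophages, which then repopulate, and injection followed 8 weeks after the treatment. Cells were sorted 12 h after LPS or PBS. The reporter mice, labelled as homozygous for Ccr2CreERT2 and R26tdT, all received BLZ945 and tamoxifen and then PBS or LPS. In these mice tdT marks cells that expressed Ccr2 at the time of tamoxifen and their descendants, and tdT+ and tdT- sdCAMs were sorted apart. A CTL reporter group was not analysed here. Because the PBS groups of WT and Ccr2-/- mice had no gavage, an effect of LPS cannot be told apart from an effect of the vehicle there. In bulk libraries, fewer cells of a type and less RNA per cell cannot be told apart either.

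Total counts ranged from 7497764 to 9506827 in WT MG, from 1705930 to 7699790 in WT sdCAMs, from 7957064 to 11330781 in Ccr2-/- MG, from 7887891 to 10727796 in Ccr2-/- sdCAMs and from 2060240 to 10623650 in the reporter libraries. Ccr2 itself lay between 16.8 and 42.96 CPM (counts scaled to a library total of 1000000) in untreated WT sdCAMs and between 2.46 and 5.59 CPM in untreated Ccr2-/- sdCAMs, while the ranges of untreated MG overlapped between genotypes (3.87 to 10.6 and 5.10 to 7.10 CPM). The summed level of 6 sdCAM markers was at least 1108 CPM in every sdCAM library and at most 28.8 CPM in every MG library, and 5 microglial markers summed to at least 6513 CPM in MG. Among sdCAM libraries the microglial sum was highest in untreated WT mouse 15 (10450 CPM) and in the tdT+ library of LPS mouse 5 (9727 CPM), and the latter also had the lowest sdCAM marker sum. In the LPS groups of Ccr2-/- mice, the sample titles name the opposite cell type to the cell type field, and the markers followed the cell type field. The index numbers of the tdT- library of LPS mouse 1 and the tdT+ library of LPS mouse 7 are out of sequence, each standing in the place of the other. Called fold changes of the members that rest on them are also given with the columns exchanged. A mark of unknown meaning is attached to 6 WT sdCAM libraries, among them all 3 of the CTL and LPS group.

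The members sit in a cluster on chromosome 1 in the order Cd244a, Ly9, Slamf7, Cd48, Slamf1 and Cd84, followed by the family member Slamf6, with Slamf9 and Slamf8 farther on after 14 and another 4 coding genes. Promoter windows from 250 bases before to 50 bases after the RefSeq start site (build GRCm38.p6) were matched for 7 of the 8 members, all but Ly9. The windows of Cd244a, Slamf7, Slamf8, Slamf9, Slamf1 and Cd48 are shown because each of these genes was called in at least 1 of the LPS comparisons below. Capitals mark matches, on either strand, to the PU.1 core GAGGAA, the interferon-stimulated response element core (GAAA, any 2 bases, GAAA) and the NF-kappaB consensus.
Cd244a (chr1:171558943-171559242, + strand): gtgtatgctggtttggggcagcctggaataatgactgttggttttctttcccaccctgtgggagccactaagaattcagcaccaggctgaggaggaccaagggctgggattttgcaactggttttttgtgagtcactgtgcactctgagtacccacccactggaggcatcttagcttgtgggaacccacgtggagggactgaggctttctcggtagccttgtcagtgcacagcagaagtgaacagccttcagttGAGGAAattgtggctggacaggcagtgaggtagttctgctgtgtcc
Slamf7 (chr1:171648950-171649249, - strand): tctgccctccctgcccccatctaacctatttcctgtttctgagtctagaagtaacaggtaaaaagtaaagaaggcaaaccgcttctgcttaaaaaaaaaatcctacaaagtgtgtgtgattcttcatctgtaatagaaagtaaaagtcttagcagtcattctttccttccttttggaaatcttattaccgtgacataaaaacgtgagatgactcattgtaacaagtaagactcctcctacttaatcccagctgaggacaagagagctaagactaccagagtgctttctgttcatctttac
Slamf8 (chr1:172590519-172590818, - strand): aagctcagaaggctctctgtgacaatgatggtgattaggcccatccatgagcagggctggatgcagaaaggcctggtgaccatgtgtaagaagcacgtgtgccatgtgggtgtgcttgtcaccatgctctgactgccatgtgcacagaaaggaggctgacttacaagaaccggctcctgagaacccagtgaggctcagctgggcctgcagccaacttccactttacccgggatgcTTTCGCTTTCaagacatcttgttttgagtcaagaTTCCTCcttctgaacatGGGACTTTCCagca
Slamf9 (chr1:172475110-172475409, + strand): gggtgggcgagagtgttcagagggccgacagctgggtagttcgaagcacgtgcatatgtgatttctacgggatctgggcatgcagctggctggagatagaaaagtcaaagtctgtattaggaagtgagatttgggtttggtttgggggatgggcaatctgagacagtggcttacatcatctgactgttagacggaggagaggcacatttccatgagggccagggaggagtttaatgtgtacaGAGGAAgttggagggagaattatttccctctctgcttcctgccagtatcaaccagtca
Slamf1 (chr1:171766882-171767181, + strand): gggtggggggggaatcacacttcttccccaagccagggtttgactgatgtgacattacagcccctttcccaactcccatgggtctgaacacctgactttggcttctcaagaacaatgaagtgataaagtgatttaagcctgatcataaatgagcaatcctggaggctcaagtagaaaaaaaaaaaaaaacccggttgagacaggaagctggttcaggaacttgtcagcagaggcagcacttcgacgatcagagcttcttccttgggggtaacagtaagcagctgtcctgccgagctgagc
Cd48 (chr1:171681742-171682041, + strand): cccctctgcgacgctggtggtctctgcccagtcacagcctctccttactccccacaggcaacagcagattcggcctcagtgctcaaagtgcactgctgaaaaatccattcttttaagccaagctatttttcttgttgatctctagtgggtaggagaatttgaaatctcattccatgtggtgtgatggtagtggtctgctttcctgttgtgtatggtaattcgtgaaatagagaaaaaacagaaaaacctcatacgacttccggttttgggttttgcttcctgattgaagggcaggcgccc
The windows of Cd244a and Slamf9 each held a PU.1 core, as did that of Cd84, whereas those of Slamf7, Cd48 and Slamf1 held none of the 3 motifs. In the Slamf8 window an interferon-stimulated element lay from base 236 to 245, a PU.1 core from 270 to 275 and an NF-kappaB match from 287 to 296. The motifs do not overlap each other there. Of 27025 mouse promoter windows of the same length, 28.3% held a PU.1 core, 3.49% an interferon-stimulated element core and 8.18% an NF-kappaB match. A match describes the letters only.

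In MG at rest, Cd48, Cd84 and Slamf9 were the most abundant members and Slamf7 the least. Per kilobase of exon, the mean level in untreated WT MG was 114.3 ± 9.81 CPM for Cd48 (SD, n = 3), 81.7 ± 1.99 for Cd84, 53.7 ± 12.2 for Slamf9, 11.6 ± 0.927 for Ly9 and 11.0 ± 0.758 for Slamf8. Slamf1, Cd244a and Slamf7 were low, at 1.74 ± 0.343, 1.06 ± 0.332 and 0.0988 ± 0.147 CPM per kilobase. Untreated WT sdCAMs had the same 5 members in the same order at the top, from 140.3 ± 54 CPM per kilobase for Cd48 to 5.02 ± 2.99 for Slamf8. When the 18 groups were ordered by the mean CPM of a member, neighbouring groups overlapped in 15 to 17 of the 17 neighbouring pairs, so that the order resolves blocks of groups and not single ones.

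**Figure D1:**
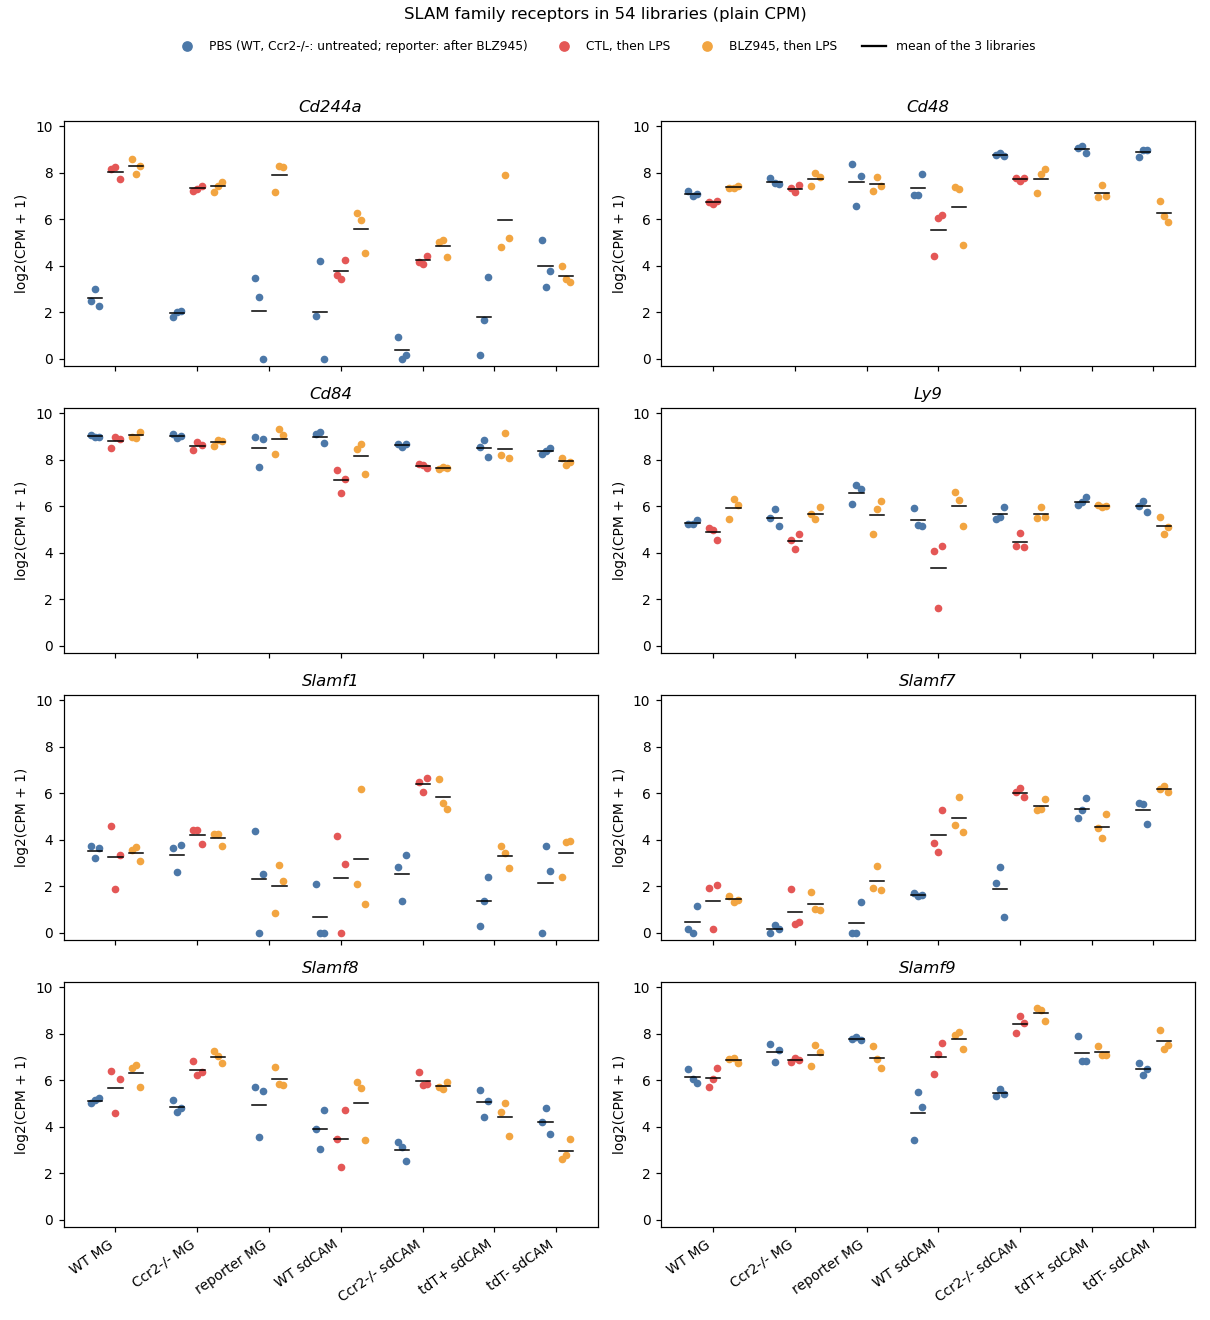
Level of each SLAM family member in all 54 libraries, as log2(CPM + 1) on the vertical axis, with 1 panel per gene, 1 point per library and the groups along the horizontal axis. Cd244a lies below 4 in MG after PBS and above 7 in MG after LPS. Over all libraries Cd48 ranges from 20.3 to 561 CPM and Cd84 from 94.7 to 632 CPM.

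sdCAMs of Ccr2-/- mice differed from MG of the same animals at rest in 4 of the 7 members other than Cd244a. Slamf7 and Cd48 were higher and Slamf8 and Slamf9 lower. Over all genes tested, 15% were called in this comparison (edgeR, adjusted p under 0.05 with a fold change past 1 log2 unit either way). The MG libraries here are also part of the contrast that drew attention to the family, though that contrast set LPS against PBS within MG. Since the low Cd244a values of these MG helped to choose the family, Cd244a is given here as a description.

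Cd48 counted 428, 459 and 417 CPM in untreated Ccr2-/- sdCAMs against 218, 187 and 181 CPM in MG, without overlap (log2 fold change 1.18 ± 0.19 (SE), adjusted p = 0.000116). Slamf9 lay at 39.2, 48.3 and 41.2 CPM in sdCAMs against 186.8, 109.1 and 156.8 CPM in MG (-1.79 ± 0.24, adjusted p = 1.5e-05). Slamf8 behaved alike, with 9.07, 7.76 and 4.74 CPM against 34.5, 23.8 and 27.0 CPM (-1.95 ± 0.27, adjusted p = 2.01e-05). In each of these genes the lowest library of the higher cell type exceeded every library of the other.

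The call of Slamf7 rests on few reads. Slamf7, a receptor that activates phagocytosis and lymphocyte killing, counted 30, 50 and 5 reads in Ccr2-/- sdCAMs and 0, 3 and 1 in MG (4.49 ± 0.97, adjusted p = 0.00192); since every MG library was at or under 3 reads, the fitted fold depends on the prior count and is no bound. Cd244a counted 8, 0 and 1 reads in sdCAMs against 23, 33 and 26 in MG, without a test. Cd84 was slightly lower in sdCAMs and under the fold limit (-0.37 ± 0.12, adjusted p = 0.0255), and neither Ly9 nor Slamf1 passed the test.

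In untreated WT mice 0 of the 8 members were called between sdCAMs and MG by edgeR, against 17.1% of all genes, although 2 members had an unadjusted p under 0.05 and DESeq2 called 1. Slamf9 was again lower in sdCAMs, with 9.84, 43.7 and 28.0 CPM against 88.4, 65.6 and 57.6 CPM in MG (-1.07 ± 0.44, adjusted p = 0.0962), and the mean level of Slamf8 was 15.5 ± 9.21 CPM against 33.9 ± 2.33 CPM (-0.85 ± 0.55, adjusted p = 0.295). Slamf7 pointed upwards in sdCAMs (2.48 ± 1.03, adjusted p = 0.103). The WT sdCAM libraries included the shallowest of the series. Microglial markers stood at 10.7, 17.5 and 36% of their MG level in untreated WT sdCAMs of mice 9, 14 and 15. In untreated Ccr2-/- sdCAMs they stood at 8.31 to 12.0%. The part of microglial RNA in these comparisons was not tested.

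Reporter mice given PBS, all of them repopulated after BLZ945, showed 2 members called between the mean of the sdCAM groups and MG, against 11.1% of all genes. Slamf7 ranged from 24.7 to 55 CPM in the 6 sdCAM libraries and counted 0, 0 and 14 reads in MG (6.34 ± 0.98, adjusted p = 0.000208). Cd48 lay between 412 and 561 CPM in sdCAMs and at 326, 93.7 and 232 CPM in MG (1.25 ± 0.34, adjusted p = 0.0218), and this call was lost on leaving out any of 3 libraries, the tdT- library of PBS mouse 175 (adjusted p = 0.0502) or the MG libraries of PBS mice 175 (0.108) and 177 (0.0566). Slamf7 levels in these sdCAMs were well above the 0.608 to 6.16 CPM of untreated WT and Ccr2-/- sdCAMs, but the reporter libraries differ from those in genotype, treatment and batch label, and these cannot be told apart. T cell markers summed to between 10.3 and 149.1 CPM in the tdT+ and between 0.109 and 23.7 CPM in the tdT- PBS libraries. Natural killer cell markers summed to between 11.9 and 67.5 CPM and between 0.109 and 7.99 CPM in that order. Slamf7 lay between 29.7 and 55 CPM in the tdT+ and between 24.7 and 47.1 CPM in the tdT- PBS libraries. The part of these markers in the Slamf7 level was not tested.

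**Figure D2:**
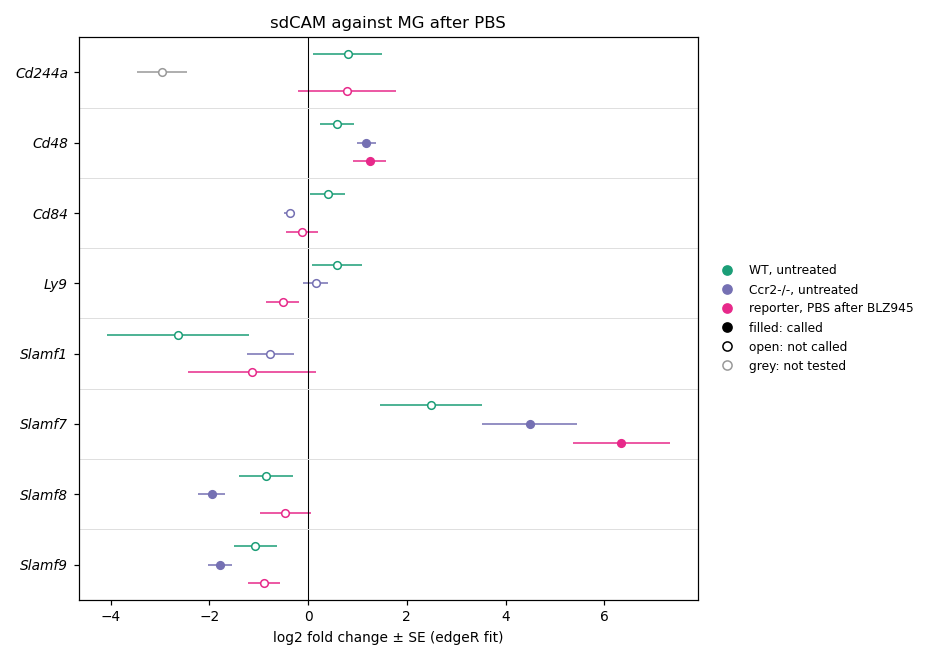
Difference between sdCAMs and MG in PBS-injected WT, Ccr2-/- and reporter mice, as the fitted log2 fold change of each member with its standard error; filled points passed the test, and the grey point of Cd244a in Ccr2-/- mice was not tested. Slamf7 lies above 0 and Slamf9 below 0 in all 3 genotypes.

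Cd244a had the largest fitted LPS change of the members in MG of all 3 genotypes. In the Ccr2-/- MG that pointed to the family, it stood at 2.49, 3.06 and 3.13 CPM in untreated mice and at 149, 155 and 173 CPM after CTL and LPS, a ratio of means of 54.9. In WT MG, which that choice did not use, Cd244a went from 4.67, 7.00 and 3.89 CPM to 288, 299 and 212 CPM. All LPS libraries exceeded all untreated libraries, and the change was called (5.59 ± 0.27, adjusted p = 1.98e-07).

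Repopulated reporter MG were at 10.1, 5.39 and 0 CPM of Cd244a after PBS and at 142, 307 and 302 CPM after LPS. The groups did not overlap and the fitted change was of the same size as in WT MG, but it did not pass edgeR's test in these 6 variable libraries (5.30 ± 1.34, adjusted p = 0.111). DESeq2 called it (5.40, adjusted p = 0.000122). edgeR called 0 of the 8 members and 1.08% of all genes in this comparison, with 3 members and 1510 genes at an unadjusted p under 0.05, and DESeq2 called 1 member and 853 genes.

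Cd244a was the only member called in WT MG, against 16.7% of all genes. Its ligand Cd48 was at 149, 126 and 133 CPM before and at 106, 99.3 and 109 CPM after LPS, without overlap, which passed on the adjusted p but not on size (-0.47 ± 0.13, adjusted p = 0.02). For the other members the changes were 0.66 ± 0.38 for Slamf8 (adjusted p = 0.208), 1.99 ± 1.15 for Slamf7 (0.215), -0.51 ± 0.23 for Ly9 (0.12), -0.30 ± 0.14 for Cd84 (0.134), -0.13 ± 0.21 for Slamf9 (0.691) and 0.04 ± 0.55 for Slamf1 (0.967). Slamf8 depended on WT LPS mouse 4, which had 23.2 CPM where the other LPS mice had 82.2 and 65.4 CPM; without it the change was 1.04 (adjusted p = 0.00462). The median change of the 8 members was -0.04 and that of all genes 0.02.

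In Ccr2-/- MG, as a description, the fitted changes of the other members were 2.85 ± 1.24 for Slamf7, 1.57 ± 0.22 for Slamf8, 0.82 ± 0.35 for Slamf1, -1.11 ± 0.24 for Ly9, -0.48 ± 0.13 for Cd84, -0.46 ± 0.22 for Slamf9 and -0.37 ± 0.16 for Cd48. Slamf8 rested on 34.5, 23.8 and 27.0 CPM before and 110.7, 74.3 and 79.6 CPM after LPS. Slamf7 rested on 0, 3 and 1 reads before and 30, 3 and 4 reads after, so only 1 LPS library was clearly above the rest.

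**Figure D3:**
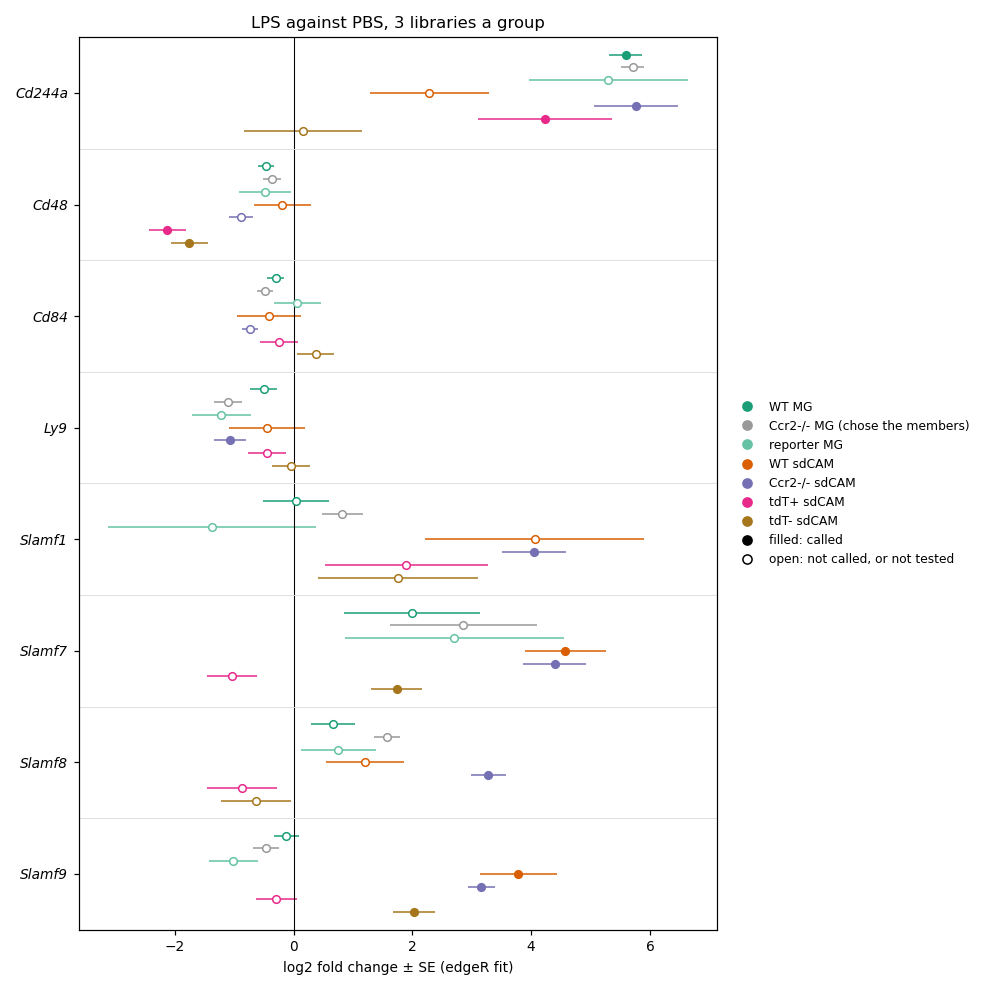
LPS response of each member in 7 cell populations, as the fitted log2 fold change with its standard error; filled points passed the test, and the grey points of Ccr2-/- MG were not tested. The fitted change of Cd244a exceeds 5 log2 units in MG of all 3 genotypes and in Ccr2-/- sdCAMs.

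The SLAM family moved broadly in Ccr2-/- sdCAMs, where LPS raised 5 of the 8 members and lowered 1, against 21.5% of all genes called. The median change of the members was 3.22, that of all genes -0.05. Slamf9 climbed from 39.2, 48.3 and 41.2 CPM to 262, 428 and 348 CPM (3.16 ± 0.23, adjusted p = 8.2e-07). Slamf8, a receptor known to restrain the NADPH oxidase in macrophages, climbed from 9.07, 7.76 and 4.74 CPM to 79.5, 54.7 and 55.5 CPM (3.28 ± 0.30, adjusted p = 4.85e-06). The LPS and untreated libraries of both genes were far apart.

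Slamf7 moved from 3.36, 6.16 and 0.608 CPM to 64.5, 72.9 and 55.3 CPM (4.39 ± 0.54, adjusted p = 5.79e-05). Slamf1 moved from 6.16, 1.60 and 9.12 CPM to 88.6, 64.3 and 99.5 CPM (4.05 ± 0.53, adjusted p = 0.000108). Both sets of LPS libraries lay above every untreated one. Cd244a counted 8, 0 and 1 reads before LPS and 135, 159 and 176 reads after (5.77 ± 0.71, adjusted p = 6.01e-05), and in CPM it reached 17.1, 16.02 and 20.7, about 10.3 to 12.0% of the level in MG of the same mouse. Slamf6, the family member outside the group, also rose (1.99 ± 0.27, adjusted p = 0.000119).

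Ly9, Cd84 and Cd48 went the other way. Ly9 fell from 42.3, 44.8 and 62.3 CPM to 18.3, 27.6 and 18.1 CPM (-1.07 ± 0.27, adjusted p = 0.00922). This call sat at the fold limit and was lost, on size or on the adjusted p, without untreated mouse 5f (-0.86, adjusted p = 0.0534) or LPS mice V1m (-0.94, 0.0505) or V4f (-0.96, 0.0451). Cd48 was at 428, 459 and 417 CPM before and at 218, 199 and 219 CPM after LPS, and Cd84 at 404, 367 and 408 CPM and at 223.5, 218 and 199 CPM, again without overlap but under the fold limit (-0.89 ± 0.21, adjusted p = 0.00621, and -0.73 ± 0.13, adjusted p = 0.00136). With library totals alone in place of TMM scaling Cd48 passed the limit (-1.04, adjusted p = 0.00326).

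Markers of other cells changed in the same libraries. The neutrophil list (5 genes) summed to between 1.22 and 2.69 CPM in untreated Ccr2-/- sdCAMs and to between 75.4 and 117.7 CPM after LPS, with Ly6g at 0 in every library. The monocyte list (5 genes) summed to at most 0.123 CPM before and to between 96.7 and 182.8 CPM after LPS, with Chil3 at 0. Their part in the rise of Slamf1, Slamf7, Slamf8 and Slamf9 was not tested.

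In WT sdCAMs, LPS raised Slamf7 and Slamf9, 2 of the 8 members, against 6.32% of all genes. Scaling matters in these libraries, so levels are given as TMM-scaled CPM, the scale of the fit. Slamf7 lay at 1.86, 1.39 and 1.09 TMM-scaled CPM in untreated mice and at 28.2, 20.0 and 56.9 after LPS (4.57 ± 0.68, adjusted p = 0.00575). Slamf9 lay at 7.95, 30.3 and 14.7 TMM-scaled CPM before and at 155, 276 and 298 after (3.78 ± 0.65, adjusted p = 0.0102). The groups did not overlap for either gene, nor did they on plain CPM, where the ratios of means were 9.56 for Slamf7 and 5.01 for Slamf9.

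Other members were scattered. Slamf1 counted 10, 0 and 0 reads before and 130, 0 and 45 after LPS (4.06 ± 1.84, adjusted p = 0.198). Cd244a was at 2.12, 12.2 and 0 TMM-scaled CPM before and 23.1, 19.2 and 27.6 after (2.28 ± 1.00, adjusted p = 0.183). Slamf8 was higher on the fitted scale (1.20 ± 0.65, adjusted p = 0.282) and not on plain CPM, where its ratio of means was 0.844, so its direction depends on the scaling; neither value passed a test. Cd48, Cd84 and Ly9 were lower without overlap on plain CPM, with ratios of means of 0.314, 0.277 and 0.281. On the fitted scale their changes were -0.20 ± 0.48, -0.41 ± 0.54 and -0.45 ± 0.64 (edgeR, adjusted p = 0.842, 0.681 and 0.712). The size of these falls depended on the scaling. The median change was 1.74 for the members and -0.08 for all genes. With library totals alone that median of all genes fell to -1.55, and the share of calls that were higher went from 58.6 to 10.8%. The neutrophil list summed to between 0 and 79.4 CPM before and between 129.5 and 1129 CPM after LPS, when most of it was S100a8, and its part was not tested.

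Whether the response differed between sdCAMs and MG was tested directly in WT mice. Slamf9 was the 1 member called, against 1.32% of all genes: its response was 3.83 ± 0.62 log2 units greater in sdCAMs (adjusted p = 0.00502), since it went up in sdCAMs and stayed between 51.1 and 90.8 CPM in the MG of all untreated and CTL mice. For Cd244a the fitted response was smaller in sdCAMs and did not pass edgeR's test (-3.36 ± 0.96, adjusted p = 0.0905), though it did with DESeq2 (-3.21, adjusted p = 0.0156) and without untreated sdCAM mouse 15 (-3.95, adjusted p = 0.00607). Slamf7 and Slamf1, with 2.54 ± 1.38 and 3.98 ± 1.91, were not called (adjusted p = 0.344 and 0.283). The same test was not run in Ccr2-/- mice, whose MG response was used to choose the family.

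The Cd244a level of LPS-treated sdCAMs was set beside that of microglial markers, without a test of association. Over the 18 sdCAM libraries after LPS, Cd244a ranged from 2.88 to 78% of its level in MG of the same mouse, and the median of 5 microglial markers ranged from 1.53 to 83.3%. The highest library in both was the tdT+ library of reporter mouse 5, with 78 and 83.3%. Ccr2-/- sdCAMs after CTL and LPS held 10.3 to 12.0% for Cd244a and 6.53 to 10.3% for the markers, and WT sdCAMs 3.23 to 8.5% and 2.35 to 5.46%. The tdT- libraries had 2.88 to 10.4% of Cd244a with 1.53 to 3.18% of the markers. The part of microglial RNA in the Cd244a level of sdCAMs was not tested.

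**Figure D4:**
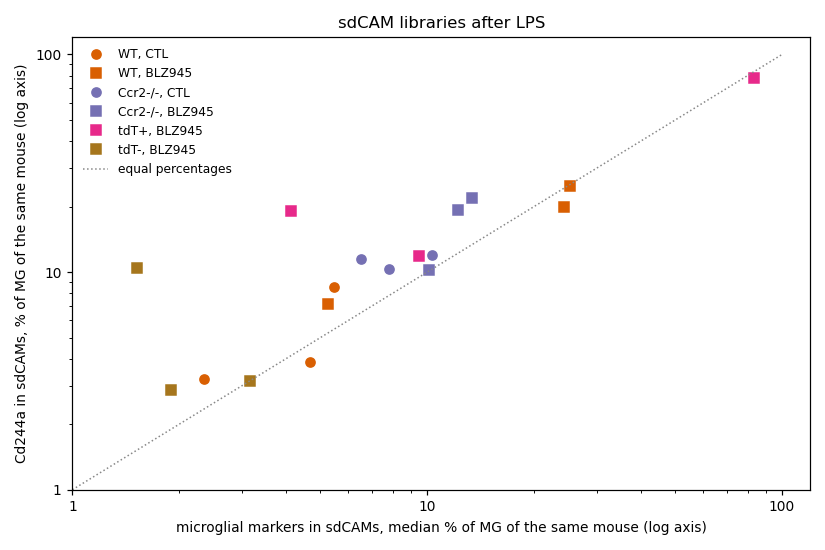
Cd244a in each of the 18 LPS-treated sdCAM libraries as a percentage of MG of the same mouse (vertical axis) against the median of 5 microglial markers as a percentage of MG (horizontal axis), 1 point per library; both axes are logarithmic. The tdT+ library of reporter mouse 5 stands apart at 78 and 83.3%.

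In the reporter mice, Cd48 fell after LPS in both sdCAM populations. In tdT+ sdCAMs it lay at 485, 516 and 419 TMM-scaled CPM after PBS and at 97.6, 126 and 101 after LPS (-2.13 ± 0.32, adjusted p = 0.000543). In tdT- sdCAMs it lay at 365, 461 and 456 after PBS and at 163, 138 and 77.4 after LPS (-1.76 ± 0.31, adjusted p = 0.000674). PBS and LPS libraries were well separated in both, and the difference between the falls was not called (-0.37 ± 0.43, adjusted p = 0.695). With the pair of libraries out of sequence exchanged, the falls were -1.88 in tdT+ (adjusted p = 0.0101) and -2.01 in tdT- sdCAMs (adjusted p = 0.00543).

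Slamf7 and Slamf9 rose in tdT- sdCAMs with the labels as given, and their responses differed between the populations. In tdT- sdCAMs Slamf7 went from 41.7, 40.95 and 22.4 to 105, 156 and 87.8 TMM-scaled CPM (1.74 ± 0.43, adjusted p = 0.00706) and Slamf9 from 92.8, 68.3 and 80.7 to 417, 325 and 244 (2.03 ± 0.36, adjusted p = 0.000589). In tdT+ sdCAMs Slamf7 was at 27.2, 34.4 and 50.6 after PBS and at 16.8, 11.5 and 26.4 after LPS (-1.04 ± 0.43, adjusted p = 0.122), and Slamf9 at 214, 104 and 103 and at 139, 97.2 and 107 (-0.30 ± 0.34, adjusted p = 0.626). The difference in response was -2.78 ± 0.60 for Slamf7 (adjusted p = 0.0123) and -2.33 ± 0.49 for Slamf9 (adjusted p = 0.0103), 2 of the 8 members against 5.17% of all genes.

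These differences depended on how the pair of libraries with index numbers out of sequence was labelled. Leaving out either library of the pair did not remove the calls. With the pair exchanged, the differences in response were -1.12 for Slamf7 and -0.85 for Slamf9, both with adjusted p = 1, and the rises in tdT- sdCAMs were 1.37 (adjusted p = 0.248) and 1.48 (adjusted p = 0.102). Among tdT- libraries after LPS, the sdCAM marker sum was 3254 CPM in mouse 1, beside 3169 and 3519 CPM. Among tdT+ libraries after LPS it was 7367 CPM in mouse 7, beside 6501 and 1108 CPM. The microglial marker sum was 170.8 CPM in the tdT- library of mouse 1, beside 326.6 and 161.9 CPM. In the tdT+ library of mouse 7 it was 725.4 CPM, beside 542.7 and 9727 CPM. Ccr2 stood at 35.8 CPM in the former, beside 8.00 and 3.11 CPM, and at 16.7 CPM in the latter, beside 25.2 and 8.60 CPM. After PBS the sdCAM marker sum lay between 12600 and 14770 CPM in tdT- and between 8571 and 9854 CPM in tdT+ libraries. Whether the labels of the pair are right was not tested. Scaling mattered too: with library totals alone the differences were -1.68 (adjusted p = 0.0648) and -1.27 (adjusted p = 0.0899), while the median difference of all genes moved from 0.16 to 1.21 and the share of calls that were higher from 21.5 to 85.3%. The rise of Slamf7 in tdT- sdCAMs was 0.88 with library totals alone and was not called (adjusted p = 0.119). Without the tdT- library of PBS mouse 177, the difference for Slamf7 was -2.50 (adjusted p = 0.0542) and its rise in tdT- sdCAMs 1.44 (adjusted p = 0.054). The neutrophil list summed to between 281.3 and 1502 CPM in tdT- libraries after LPS and to between 24.9 and 84.5 CPM in tdT+ libraries, with Ly6g at 0 in all. After PBS it reached at most 4.61 CPM in either. In tdT- libraries the natural killer cell list went from between 0.109 and 7.99 CPM after PBS to between 0.229 and 110.7 CPM after LPS. The dendritic cell list went from between 51.1 and 76.02 CPM to between 92.1 and 113.3 CPM there. In tdT+ libraries the natural killer cell list lay between 11.9 and 67.5 CPM after PBS and between 0 and 57.3 CPM after LPS. Their dendritic cell list went from between 0 and 20.1 CPM to between 32.9 and 127 CPM. The T cell list fell in tdT+ libraries, from between 10.29 and 149.1 CPM after PBS to between 0.3629 and 4.854 CPM after LPS. In tdT- libraries it lay between 0.1089 and 23.67 CPM after PBS and between 1.943 and 63.01 CPM after LPS, with overlap. The part of these lists in the rise of Slamf7 and Slamf9, or in their difference between the populations, was not tested.

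**Figure D5:**
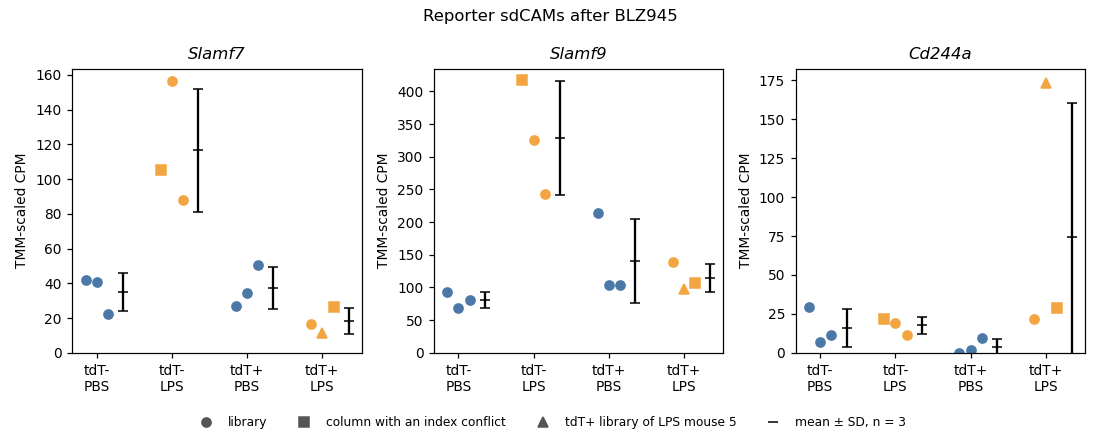
Slamf7, Slamf9 and Cd244a in tdT+ and tdT- sdCAMs of reporter mice after PBS or LPS, in TMM-scaled CPM, 1 point per library. Squares are the pair of libraries with index numbers out of sequence and the triangle is the tdT+ library of LPS mouse 5, which is the highest for Cd244a at 173.

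Cd244a was called in tdT+ sdCAMs after LPS, from 0.102, 2.02 and 9.71 to 21.4, 173 and 28.8 TMM-scaled CPM (4.24 ± 1.13, adjusted p = 0.0211). Without mouse 5, whose tdT+ library was rich in microglial markers, the change was 2.64 (adjusted p = 0.141), and without PBS mouse 175 it was 3.92 (adjusted p = 0.0734). With the pair exchanged it was 4.19 (adjusted p = 0.0445). In tdT- sdCAMs it went from 29.5, 6.78 and 11.3 to 21.7, 19.5 and 11.7, with overlap (0.16 ± 1.00, adjusted p = 0.927). The difference in response between the populations was not called (4.08 ± 1.46, adjusted p = 0.127). It was called with library totals alone (5.24, adjusted p = 0.0237) and with every gene with a count (4.18, adjusted p = 0.000139). It was also called without the tdT+ library of PBS mouse 177 (6.02, adjusted p = 0.0288). All of these fits held the tdT+ library of LPS mouse 5. In all, 2 of the 8 members were called in tdT+ sdCAMs against 13.4% of all genes and 3 in tdT- sdCAMs against 26.5%.

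Compared directly, tdT+ and tdT- sdCAMs showed no call among the members after PBS (0 of 8 called by edgeR and by DESeq2, 1 at an unadjusted p under 0.05, against 0.0236% of all genes, with 566 genes at an unadjusted p under 0.05 and 83 called by DESeq2). After LPS, Slamf7 and Slamf9 were lower in tdT+ sdCAMs (-2.68 ± 0.45, adjusted p = 0.00102, and -1.53 ± 0.35, adjusted p = 0.0107), 2 of 8 against 10.6% of all genes. With the pair exchanged the values were -1.02 (adjusted p = 0.895) and -0.05 (adjusted p = 1). Slamf9 was also not called with library totals alone (-0.50, adjusted p = 0.306) or without the tdT+ library of LPS mouse 7 (-1.43, adjusted p = 0.053). Cd244a was not called after LPS (2.08 ± 1.03, adjusted p = 0.232). It was called with library totals alone (3.19, adjusted p = 0.0305) and with every gene with a count (2.19, adjusted p = 0.00994).

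Depletion and repopulation before LPS changed no member past the threshold of edgeR. With BLZ945 against CTL after LPS, the share of all genes called was 0.0763% in WT MG, 0.0173% in Ccr2-/- MG, 0% in WT sdCAMs and 0% in Ccr2-/- sdCAMs. At an unadjusted p under 0.05 there were 776, 769, 758 and 998 genes and 3, 3, 0 and 2 members in that order, and DESeq2 called 49, 27, 11 and 63 genes and 1, 1, 0 and 1 members. The member called by DESeq2 was Ly9 each time, a receptor best known for tuning T cell and innate-like lymphocyte responses.

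Ly9 lay at 32.8, 30.9 and 22.5 CPM in WT MG after CTL and LPS and at 42.3, 77.6 and 65.99 CPM after BLZ945 and LPS (1.14 ± 0.23, adjusted p = 0.213 with edgeR and 0.00534 with DESeq2). In Ccr2-/- MG it lay at 22.2, 17.1 and 26.7 CPM and at 49.01, 42.1 and 61.2 CPM (1.24 ± 0.24, adjusted p = 0.166 and 0.00116). Ccr2-/- sdCAMs had 18.3, 27.6 and 18.1 CPM and 44.1, 61.2 and 44.9 CPM (1.24 ± 0.27, adjusted p = 0.222 and 0.00795). In these 3 populations every BLZ945 library lay above every CTL library. WT sdCAMs had 32.5, 4.16 and 28.6 against 55.9, 40.2 and 65.5 TMM-scaled CPM (1.28 ± 0.65, adjusted p = 0.711), again without overlap. The libraries of MG and sdCAMs came from the same mice and are not independent, and the CTL libraries of Ccr2-/- MG are also part of the contrast that chose the family.

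For the remaining members the BLZ945 groups differed by less. In MG, Cd48 was 106, 99.3 and 109 CPM after CTL and 163, 159 and 172 CPM after BLZ945 in WT mice (0.69 ± 0.13, adjusted p = 0.208), and 0.48 ± 0.16 log2 units higher in Ccr2-/- mice (adjusted p = 0.644). Cd244a, the member that LPS raised most in MG, differed by 0.27 ± 0.22 in WT MG (adjusted p = 0.903) and, as a description, by 0.14 ± 0.15 in Ccr2-/- MG.

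Genotype at rest was compared between untreated mice. Slamf9 was higher in Ccr2-/- MG, with 187, 109 and 157 CPM against 88.4, 65.6 and 57.6 CPM in WT MG (1.28 ± 0.23, adjusted p = 0.00119), without overlap. It was the 1 member called against 5.52% of all genes. These Ccr2-/- libraries also belong to the contrast that chose the family. Cd48 was higher by less than the fold limit (0.70 ± 0.14, adjusted p = 0.00224). The share of all calls that were higher in Ccr2-/- MG was 22.9%, and 7.07% with library totals alone.

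In sdCAMs, Cd244a was lower and Cd48 higher in Ccr2-/- mice, 2 of the 8 members against 9.5% of all genes. Cd244a counted 8, 0 and 1 reads in Ccr2-/- sdCAMs and 8, 44 and 0 in WT sdCAMs (-4.34 ± 1.04, adjusted p = 0.0157), so the groups overlapped, and without WT mouse 14 the change was -2.20 (adjusted p = 0.209). Without Ccr2-/- mouse 3m or 5f it was -3.81 (0.0708) or -3.95 (0.0776). Cd48 was at 428, 459 and 417 CPM against 131, 129 and 241 CPM (1.36 ± 0.38, adjusted p = 0.0331). Although its groups did not overlap, this call was lost without WT mouse 9 (adjusted p = 0.0756) or 14 (0.109), and without any Ccr2-/- mouse (0.0839 to 0.108). With the mark on WT libraries as a covariate neither gene was called. Microglial markers in WT mice 9, 14 and 15, which had 8, 44 and 0 reads of Cd244a, stood at 10.7, 17.5 and 36% of their level in MG of the same mouse.

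The adaptors and effectors of SLAM receptors were followed as a list of 21 genes. In Ccr2-/- sdCAMs LPS raised 6 of the 18 tested and lowered 1, against 21.5% of all genes called (median change 0.70). Fgr, a Src family kinase of myeloid cells, rose by 8.38 ± 0.46 log2 units (adjusted p = 9.1e-08), Itgam, which encodes the integrin chain CD11b, by 2.53 ± 0.16 (1.99e-07) and Cybb by 1.89 ± 0.19 (1.12e-05). Csk, the kinase that holds Src kinases inactive, fell (-1.26 ± 0.37, adjusted p = 0.0216).

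In WT MG 2 of 19 rose, against 16.7% of all genes called, Fgr (4.97 ± 0.52, adjusted p = 3.79e-05) and Cybb (4.19 ± 0.57, 0.000282). In WT sdCAMs 2 of 18 rose against 6.32%, Fgr and Itgam, and in reporter MG 0 of 19 were called by edgeR against 1.08%. In tdT+ sdCAMs 4 of 20 rose against 13.4%, among them Fgr (5.28 ± 0.71, 0.000241), and in tdT- sdCAMs 5 of 20 rose and 2 fell, Csk and Ptpn6, against 26.5%. At rest, the adaptor gene Sh2d1b1 was lower in Ccr2-/- sdCAMs than in MG (-7.70 ± 1.39, adjusted p = 0.000774) and Cybb higher (7.91 ± 0.33, 3.91e-12), within 2 genes higher and 5 lower of 19 tested, against 15% of all genes. Cd2, a gene for the other mouse ligand of CD48, had at most 2 reads in any WT or Ccr2-/- library and reached 14.1 CPM in tdT+ sdCAMs after PBS. T cell markers summed to between 10.3 and 149.1 CPM in those tdT+ libraries. Their part in the Cd2 level was not tested.

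Over the 36 WT and Ccr2-/- libraries, the genes with levels most like a member were ranked by Pearson's r of log2(CPM + 1) among 9569 genes. These libraries share cell type, treatment and depth, so the values describe likeness only. Cd244a went most closely with Ccdc86 (r = 0.95), Ddit4 (0.939) and Pik3ip1 (0.929), and Slamf7 with Pirb (0.948), Clec4d (0.945) and Clec4e (0.944). Slamf8 went with Cd274 (0.914) and Smim3 (0.904), Slamf9 with Capg (0.85), Glrx (0.848) and Ccl9 (0.844), and Slamf1 with Tax1bp1 (0.838), Rab20 (0.836) and Socs1 (0.833). Cd48 went with the lysosomal genes Ctsb (0.936), Ggh (0.935) and Laptm4a (0.932). The best matches of Ly9 were weaker, Pdcd7 (0.751), Ntaq1 (0.734) and Taok3 (0.718), and by Spearman's rho these ranked 495, 23 and 195 (rho 0.362, 0.507 and 0.414). For Cd84 they were Tubgcp5 (0.941), Cdk19 (0.929) and Epb41l2 (0.928), which ranked 123, 73 and 95 on TMM-scaled CPM. Among the members themselves r ranged from -0.763 between Cd84 and Slamf7 to 0.699 between Cd244a and Slamf8.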

How the data were processed

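Bulk RNA-seq of sorted MG and sdCAMs was measured in 54 libraries. The authors sorted cells by flow cytometry, amplified cDNA from low RNA input with the SMARTer kit, aligned single reads with STAR 2.7.11a and counted them per gene with featureCounts 2.0.8. The deposited values are raw counts per gene symbol, 1 table each for WT, Ccr2-/- and reporter mice. The sources name mm10 and GRCm39 without saying which was used for these tables, and strand-aware counting is not given in the sources used here. The kit does not mark strand, so reads of overlapping genes on opposite strands cannot be told apart. PCR duplicates were not marked by molecular identifiers.

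CPM were computed from the library totals, which ranged from 1705930 to 11330781 counts. Tests used edgeR 4.0.16 in R 4.3.3 (quasi-likelihood, filterByExpr, TMM), two-sided, and p-values were adjusted by Benjamini-Hochberg across the genes of each fit. A call needed an adjusted p under 0.05 and a change past 1 log2 unit in either direction, and levels are given with the SD of 3 libraries, fold changes with their SE. The 6 fits took the WT MG, WT sdCAM, Ccr2-/- MG, Ccr2-/- sdCAM, reporter MG and reporter sdCAM libraries, and comparisons across cell types or genotypes took all libraries of the genotype or cell type. The test was checked on simulated counts for 6 of the comparisons. DESeq2 1.42.0, other scalings and filters, the mouse as a block, the mark on WT libraries as a covariate, an exchange of 2 columns and the removal of each library were the alternatives. MG and sdCAM libraries of the same number come from the same animal. The deviations of such pairs from their group means correlated over 0.1 in 7 of 36 pairs (range -0.052 to 0.224). Levels per kilobase used the union of exons in the GRCm38 annotation. Promoters came from RefSeq.

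The members and all gene lists were chosen with earlier results of these data known. Named genes are the 8 members, Slamf6, Cd2, Ccr2, the called genes of the adaptor list and, for each member, the 3 genes of highest Pearson r. A gene that these rules would name is not reported here. Microglial, sdCAM, monocyte, neutrophil, T cell, natural killer, B cell, dendritic and endothelial marker lists were summed per library. The B cell, dendritic and endothelial lists reached at most 49.8, 127 and 61.7 CPM in any library.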

Additional observations from a re-analysis of the deposited data

Results flagged for a closer look

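The LPS response of Slamf7 in tdT+ sdCAMs was 2.78 log2 units below that in tdT- sdCAMs (-2.78, adjusted p = 0.0123, edgeR); the fitted change was -1.04 in tdT+ and 1.74 in tdT- sdCAMs. It drew attention because a direct test of the difference between the populations passed the threshold.

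For Slamf9 the same test gave -2.33 (adjusted p = 0.0103). Both differences were lost when the pair of libraries with index numbers out of sequence was exchanged, and they fell short of the threshold with library totals alone.

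Slamf9 also responded more to LPS in WT sdCAMs than in WT MG by 3.83 log2 units (adjusted p = 0.00502). All 3 sdCAM libraries after LPS lay above the untreated ones, whereas the MG ranges overlapped.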

How the results depend on the processing

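Of the member fold changes recomputed under the alternatives, 2153 stayed on their side of the threshold, 36 gained a call and 33 lost one. The sign changed in 113, of which 20 came with library totals alone, and in 0 of these was the value called either way. The count of members called changed by over 1.5 times in 41 of 278 recomputations. Leaving out single libraries moved it between 1 and 2 for LPS in WT MG (1 as reported), LPS in tdT+ sdCAMs (2), tdT+ against tdT- after LPS (2) and the difference in response between WT sdCAMs and MG (1). The range was 1 to 3 for the difference in response between tdT+ and tdT- (2) and for reporter sdCAMs against MG (2), 0 to 1 for untreated WT sdCAMs against MG (0) and 0 to 2 for Ccr2-/- against WT sdCAMs (2). DESeq2, and also a fit of every gene with a count, called 1 member in place of 0 for BLZ945 against CTL in WT MG, Ccr2-/- MG and Ccr2-/- sdCAMs and for LPS in reporter MG. For untreated WT sdCAMs against MG they called 1 and 2, for the WT difference in response 2 and 3, and the fit of every gene called 4 in place of 2 for LPS in WT sdCAMs. Library totals alone gave 1 for the difference between tdT+ and tdT-, 2 for the WT difference in response and 1 for Ccr2-/- against WT sdCAMs. The exchange of the 2 reporter columns gave 1 for LPS in tdT- sdCAMs and 0 for both tests of tdT+ against tdT-. The mark as a covariate gave 1, 2 and 0 for untreated WT sdCAMs against MG, the WT difference in response and Ccr2-/- against WT sdCAMs. No fold limit gave 2 for LPS in WT MG and for Ccr2-/- against WT MG. Without the tdT+ library of LPS mouse 5, 1 member was called for LPS in tdT+ sdCAMs.

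With the mouse as a block, which takes up the pairing of libraries from the same animal, counts of members called stayed as they were (0, 1, 2, 2, 0 and 2). Untreated Ccr2-/- sdCAMs against MG are not counted there, since Cd244a is given as a description in that comparison. Its calls of Cd48, Slamf7, Slamf8 and Slamf9 were kept under all 13 alternatives, the block among them. The number of all genes called went from 2242 to 1380 for untreated WT sdCAMs against MG with the block. It went from 174 to 91 for the WT difference in response and from 3 to 10 for tdT+ against tdT- after PBS.

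For scaling, the share of calls that were higher went, from TMM to library totals alone, from 54.8 to 25.1% for LPS in tdT- sdCAMs, 56.4 to 70.8% in tdT+ sdCAMs, 61 to 72.1% in reporter MG, 35.1 to 87.4% for tdT+ against tdT- after LPS, 32.8 to 3.51% for the WT difference in response and 39.2 to 10.4% for Ccr2-/- against WT sdCAMs. Median-of-ratios scaling gave 24.8, 44.6 and 29.7% for the last 3. The number of all genes called by DESeq2 against edgeR was 1655 against 664 for LPS in WT sdCAMs, 853 against 118 in reporter MG, 1227 against 657 for the difference between tdT+ and tdT- and 2149 against 1260 for Ccr2-/- against WT sdCAMs. Where a call changed, the cause was not tested. Slamf1 in WT sdCAMs had no value when only the compared libraries entered the filter. Depth limits Slamf7 in MG, Cd244a in untreated sdCAMs and Slamf1 in WT sdCAMs, where libraries with 3 reads or fewer were common.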
